A study of Mus musculus with 30 samples.

Results

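The let-7 guide strands are a family of mature microRNAs (miRNAs), and 8 of them were followed here in mouse heart: mmu-let-7a, mmu-let-7b, mmu-let-7c, mmu-let-7d, mmu-let-7e, mmu-let-7f, mmu-let-7g and mmu-let-7i, written below without the species prefix. They were found on the array as the mouse entries with exactly those names, and they make up 8 of the 1079 mouse miRNAs on the array and 8 of the 306 that entered the statistical tests. The heart sections, cut at random through both ventricles, came from female C57BL/6 mice acquired at 5 to 6 weeks of age. Each mouse received a single intratracheal instillation of 40 µl followed by 150 µl of air. Exposed mice received 162 µg of Printex 90, a carbon black made of nanosized particles, in vehicle. Vehicle mice received the vehicle alone, 0.9% NaCl with 10% cell-free lavage fluid from the lungs of C57BL/6 mice, so both arms carried the instillation and the lavage fluid. Hearts were taken 1, 3 or 28 days later. The vehicle arm held 4 mice for day 1, 6 for day 3 and 4 for day 28, the Printex 90 arm held 6, 5 and 5, and RNA of every mouse went to an array of its own. The scanner record of Printex 90 day 3 replicate 3 held no signal, so 29 of 30 arrays entered the models and that group had 4.

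A miRNA guide strand is the arm of a hairpin precursor that is loaded into an Argonaute protein, where bases 2 to 8, the seed, pair with target messenger RNAs and lower their output. The let-7 family was discovered as a timing switch in nematode development and is kept in nearly all animals with bilateral symmetry. In mammals the precursors are blocked by the RNA-binding protein LIN28 in stem cells and embryos, and the mature strands accumulate as tissues differentiate, the adult heart among them. Targets known in mammals include RAS genes, Hmga2 and Myc.

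The mature sequences below, from RefSeq with assembly GRCm38.p6, are shown because the 8 members share a seed and differ at so few bases that their probes have to tell near copies apart. All 8 matched an entry. Seed bases are in capitals, and miR-98, a further strand with the same seed, closes the set.
let-7a: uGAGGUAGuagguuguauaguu
let-7b: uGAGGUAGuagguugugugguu
let-7c: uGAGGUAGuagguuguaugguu
let-7d: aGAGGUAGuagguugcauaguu
let-7e: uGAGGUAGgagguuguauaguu
let-7f: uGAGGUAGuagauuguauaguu
let-7g: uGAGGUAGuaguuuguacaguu
let-7i: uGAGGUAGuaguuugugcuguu
miR-98: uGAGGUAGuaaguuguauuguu

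Counted from 1 at the 5′ end and with the let-7a base named first, let-7c differed from let-7a by A19G, let-7e by U9G and let-7f by G12A. At 2 bases each, let-7b differed by A17G and A19G, let-7d by U1A and U16C, and let-7g by G12U and U18C. The most distant from let-7a was let-7i, with G12U, A17G, U18C and A19U. RefSeq listed 11 mouse mature strands with this seed. Besides the 8 and miR-98 these were miR-1961, which had a probe but did not pass detection, and let-7k, for which the array named no probe.

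The hairpins lie at several places in the genome (GRCm38.p6), some side by side. The hairpins of let-7d, let-7f-1 and let-7a-1 sit on chromosome 13 within chr13:48536012-48538272 on the minus strand, with 1714 and 261 bases between neighbours. Those of let-7c-2 and let-7b are 621 bases apart on chromosome 15. The hairpin of let-7c-1 lies 656 bases from that of miR-99a on chromosome 16, that of let-7e 367 bases from miR-125a on chromosome 17, and that of let-7f-2 785 bases from miR-98 on chromosome X. On chromosome 9, let-7a-2 lies 5211 bases from miR-100. The hairpins of let-7g (chromosome 9, chr9:106178840-106178927) and let-7i (chromosome 10, chr10:122985640-122985724) have no other listed family hairpin beside them. Since let-7a, let-7c and let-7f each have more than 1 hairpin with the same mature strand, the array could not say which gene gave the signal.

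All 8 members were readily measured. Each had 2 probes of 20 spots, and every one of those spots was well above background on 29 of 29 arrays. Values are log2 of the background-subtracted signal, scaled so that arrays shared their 75th percentile over 418 probes that every array detected, and averaged over a member's probes. The 2 probes of a member gave nearly the same course over arrays, with Pearson correlations of 0.973 for let-7c to 0.992 for let-7b. Even so, they shared the sign of the small difference between exposed and vehicle mice for 6 of 8 members on day 1. It was 8 of 8 on day 3 and 2 of 8 on day 28. The 2 estimates lay at most 0.06 apart. Different probes catch their targets with different efficiency, so levels are compared between mice for a member and never between members. The arrays carried 45440 spots, of which 18.4% to 27.5% were well above background, and 0 were saturated.

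The tissue carried the miRNAs of heart muscle. Of the 5 cardiomyocyte markers (miR-1a, miR-133a, miR-133b, miR-208a-3p and miR-499), 5 were detected on all 29 arrays, as were the 4 red cell markers on the array and the 5 leukocyte, 2 endothelial, 2 smooth muscle and 4 fibroblast markers. None of 9 epithelial and 2 brain markers was detected on any array, and liver miR-122 was detected on 26. In a bulk section, fewer cells of a type and less of an RNA per cell cannot be told apart.

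let-7a, the member whose sequence served as the reference above, illustrates the levels. In vehicle mice it measured 12.90, 12.92, 13.11 and 13.17 on day 1, from 12.90 through a median of 13.04 to 13.22 in 6 mice on day 3, and 12.91, 13.10, 12.94 and 13.43 on day 28. In exposed mice it ran from 12.91 through a median of 13.04 to 13.35 in 6 mice on day 1, and measured 13.13, 12.92, 13.16 and 13.29 on day 3 and 13.10, 12.99, 13.02, 13.09 and 13.33 on day 28. The widest spread lay among the vehicle mice of day 28, where 1 mouse stood above the other 3, and exposed and vehicle mice overlapped on every day.

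The group means of each member lay close together. For let-7a they ran from 13.02 ± 0.14 (SD, n = 4) in vehicle mice on day 1 to 13.13 ± 0.15 (SD, n = 4) in Printex 90 mice on day 3. The distance between the lowest and the highest of the 6 group means was 0.05 for let-7i, 0.06 for let-7g, 0.08 for let-7c, 0.10 for let-7a, 0.12 for let-7b and let-7f, 0.13 for let-7d and 0.14 for let-7e. Vehicle day 1 was the lowest group for let-7a, let-7b, let-7c, let-7d, let-7f and let-7g, and Printex 90 day 28 for let-7e and let-7i. The highest group was Printex 90 day 3 for let-7a, let-7c, let-7g and let-7i, Printex 90 day 28 for let-7b, vehicle day 28 for let-7d and let-7f, and Printex 90 day 1 for let-7e. Neighbours in these orders never differed by more than the pooled SD within groups (0.14 to 0.22). That SD is a spread between mice and does not decide an order of means. In limma's F test over the 6 groups, 0 of 8 members passed an adjusted p of 0.05 (1.96% of tested miRNAs did). The members' adjusted p in that F test was 0.999, so no order is established for any member.

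**Figure D1:**
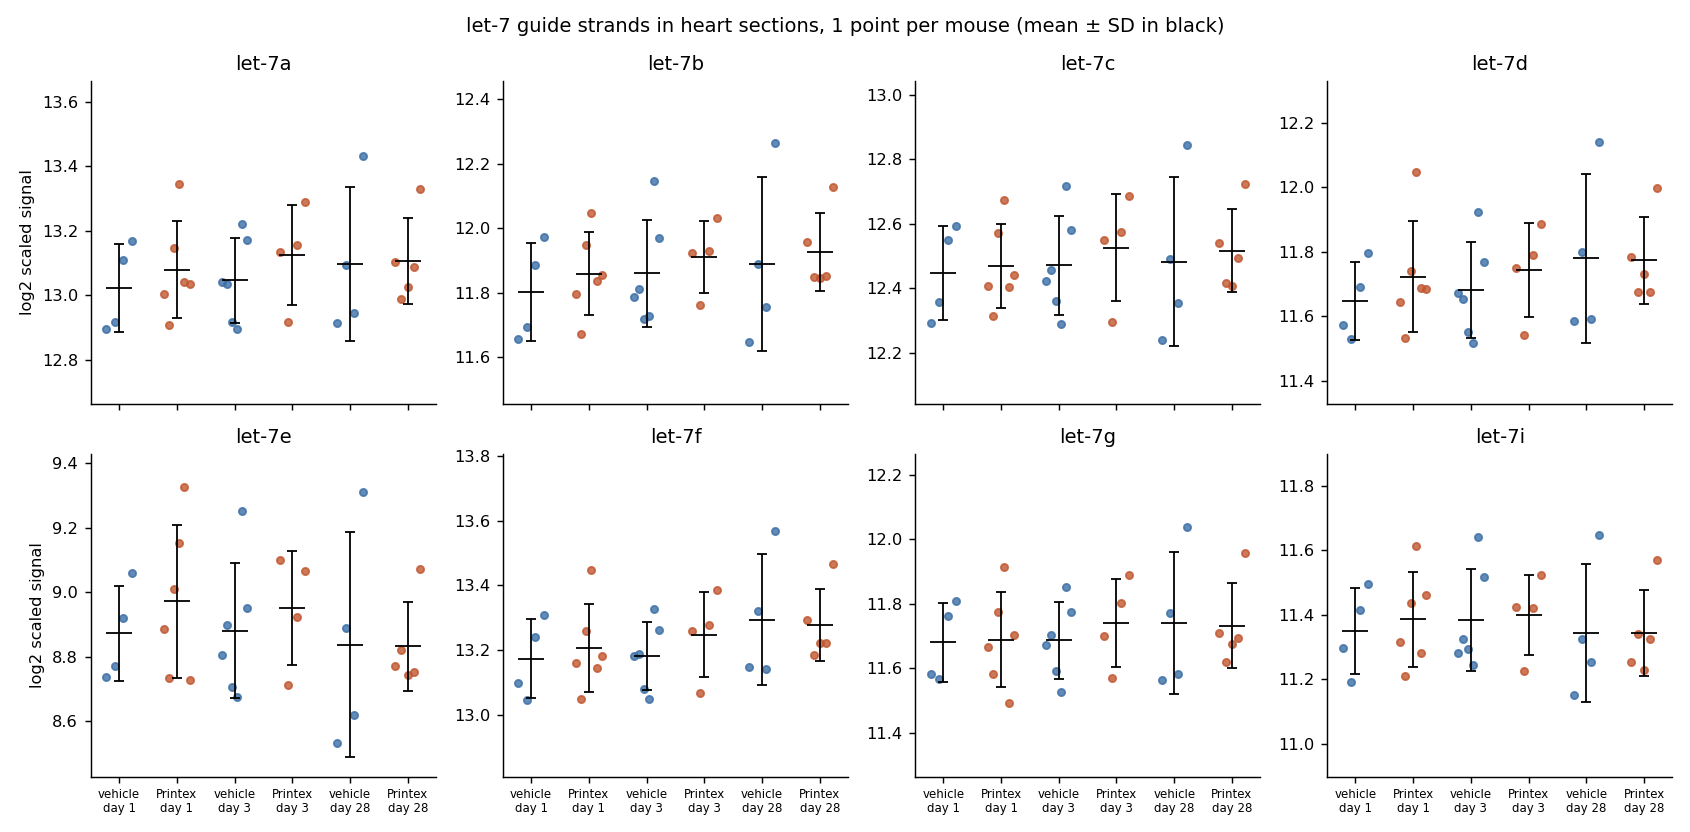
Log2 scaled signal (vertical axis, each panel spanning 1 log2 unit) of each member in the 6 groups (horizontal axis), with 1 point per mouse, blue for vehicle and orange for Printex 90, and the mean ± SD in black. Vehicle and exposed mice overlap on each day for all 8 members, and vehicle day 28 has the widest spread, from 12.91 to 13.43 for let-7a.

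The first question was whether instilled carbon black changed let-7 in the heart 1 day later. On day 1, limma called 0 of 8 members, against 0% of the 306 miRNAs tested in either direction, 2 of which had an unadjusted p under 0.05. The 8 differences, exposed minus vehicle, lay between 0.01 for let-7g and 0.10 for let-7e, with a median of 0.05 against −0.07 over all tested miRNAs. The value for let-7e was 0.10 ± 0.14 (SE; limma adjusted p = 0.886), that for let-7d 0.08 ± 0.11 (limma adjusted p = 0.886) and that for let-7a 0.06 ± 0.10 (limma adjusted p = 0.898). For all 8 members the 2 groups overlapped (0% of tested miRNAs had groups that did not). In 4 of 6 exposed mice the mean of the 8 members exceeded that of the vehicle group.

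The precision sets what size of change could have gone unseen on day 1. The 95% intervals of the 8 members together covered ratios of exposed to vehicle from 0.869 to 1.31, and the widest was that of let-7e, −0.19 to 0.39 on the log2 scale. The signs depended on single arrays and on the scaling. Without vehicle day 1 replicate 2, 4 of 8 members lay above 0 (median 0.01), without Printex 90 day 1 replicate 4 also 4 (median −0.00), and without vehicle day 1 replicate 1, 6 (median 0.01). The median was 0.08 without Printex 90 day 1 replicate 2, 0.07 without vehicle day 1 replicate 3 and 0.10 without vehicle day 1 replicate 4. With no scaling, 0 of 8 lay above 0 (median −0.15), where all tested miRNAs had a median of −0.24. Scaled on all probes, 8 of 8 lay above 0 (median 0.22, against 0.11 over all tested miRNAs), and in the submitters' value table also 8 of 8 (median 0.17, against 0.03).

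On day 3, exposed and vehicle mice again overlapped. limma called 0 of 8 members (0% of tested miRNAs were called, and 1 had an unadjusted p under 0.05). Differences lay between 0.01 for let-7i and 0.08 for let-7a, with a median of 0.06 against 0.03 over all tested miRNAs. The value for let-7a was 0.08 ± 0.10 (SE), that for let-7e 0.07 ± 0.14 and that for let-7f 0.07 ± 0.09, each with a limma adjusted p of 1.00. The intervals covered ratios from 0.858 to 1.28. Groups overlapped for 8 of 8 members (0% of tested miRNAs did not overlap), and the mean of the 8 members exceeded that of the vehicle group in 3 of 4 exposed mice. Scaled on all probes, 0 of 8 differences lay above 0 (median −0.03, and −0.06 over all tested miRNAs), and with no scaling 8 of 8 did (median 0.18, against 0.13). Single arrays moved the median to 0.13 (without Printex 90 day 3 replicate 2), 0.11 (without vehicle day 3 replicate 5), 0.03 (without vehicle day 3 replicate 3 or 4) and 0.01 (without Printex 90 day 3 replicate 5), with 7 or 8 members above 0 in each.

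The array without scanner signal bears on day 3, since the submitters' own log2 value table includes it. In that table Printex 90 day 3 replicate 3 was below the other 4 exposed mice for 7 members, for example at 12.78 for let-7a against 13.05 to 13.29 and at 8.53 for let-7e against 8.93 to 9.27. For let-7b it lay inside their range. With it the median day 3 difference in that table was −0.05 with 0 of 8 members above 0, and without it 0.01 with 5 of 8 above 0, and limma called 0 members either way. Leaving this array out of the table was an alternative chosen after seeing the data.

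On day 28 the differences lay on both sides of 0. limma called 0 of 8 members (0% of tested miRNAs, 1 with an unadjusted p under 0.05), and 3 of 8 lay above 0. The values ran from −0.02 for let-7f to 0.04 for let-7b, with a median of −0.00 against 0.01 over all tested miRNAs. For let-7b the difference was 0.04 ± 0.11 (SE; limma adjusted p = 0.970) and for let-7f −0.02 ± 0.09 (limma adjusted p = 0.987). The intervals covered ratios from 0.809 to 1.23. Groups overlapped for 8 of 8 members, whereas they did not for 0.327% of tested miRNAs. In 1 of 5 exposed mice the mean of the 8 members exceeded that of the vehicle group. Scaled on all probes, 0 of 8 differences lay above 0 (median −0.18, and −0.16 over all tested miRNAs), and with the brightest probe of each miRNA 8 of 8 did (median 0.02). Vehicle day 28 replicate 4 was the highest vehicle mouse of that day for all 8 members. Without it 8 of 8 differences lay above 0 (median 0.12), while 0 of 8 did without vehicle day 28 replicate 1 (median −0.07) or replicate 3 (median −0.05), or without Printex 90 day 28 replicate 5 (median −0.06). It was 6 of 8 without vehicle day 28 replicate 2, 5 without Printex 90 day 28 replicate 1, and 7 without replicate 2, 3 or 4 of that group.

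Averaged over the 3 days, the estimates were narrower. limma called 0 of 8 members (0% of tested miRNAs, and 0 with an unadjusted p under 0.05). All 8 differences lay between 0.02 and 0.05, with a median of 0.04 against −0.00 over all tested miRNAs, and 95% intervals that together covered ratios from 0.924 to 1.17. For let-7a the mean difference was 0.05 ± 0.06 (SE; limma adjusted p = 0.994). The 8 values rise and fall together over arrays, as shown further on, so their 8 signs are not separate observations. With no scaling 3 of 8 lay above 0. Without vehicle day 28 replicate 4 the median was 0.08, and without Printex 90 day 3 replicate 2 it was 0.06. It was 0.03 without vehicle day 1 replicate 1 and 0.02 without vehicle day 28 replicate 1 or 3, Printex 90 day 1 replicate 4, Printex 90 day 3 replicate 5 or Printex 90 day 28 replicate 5. Of these, vehicle day 28 replicate 1 and Printex 90 day 28 replicate 5 left 6 of 8 members above 0.

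**Figure D2:**
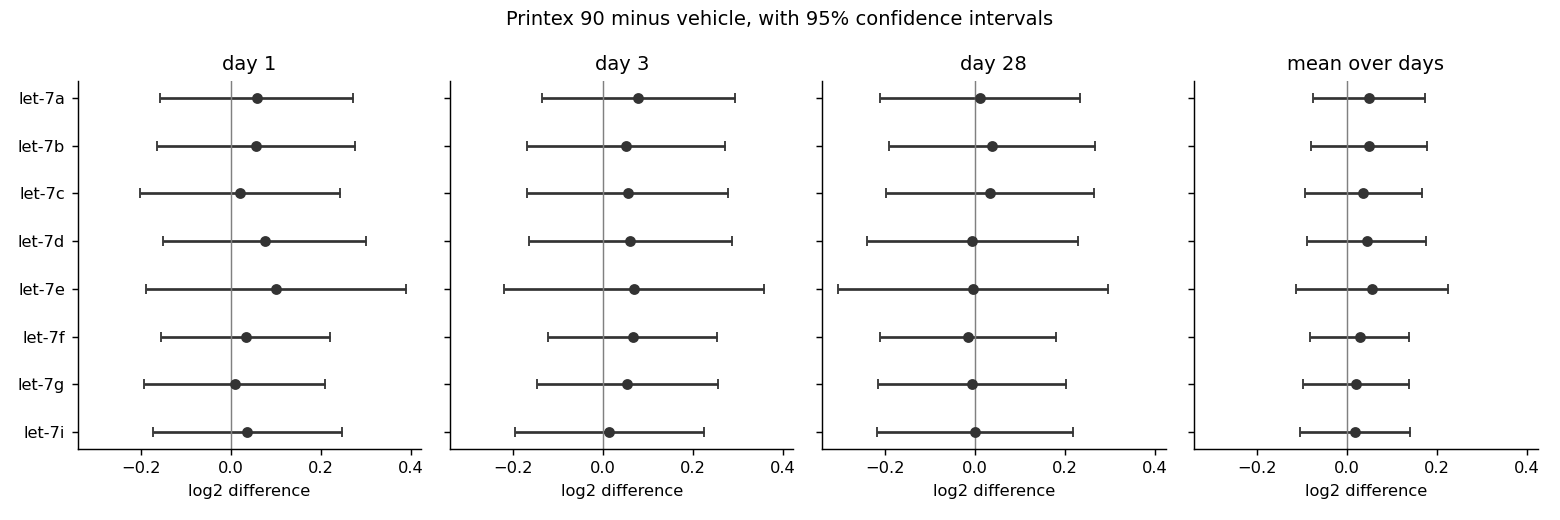
Log2 difference, Printex 90 minus vehicle (horizontal axis), for each member (vertical axis) on day 1, 3 and 28 and in the mean over days. Points are limma estimates and bars 95% confidence intervals, and every interval includes 0, the widest being that of let-7e.

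Whether the exposure difference changed between days was asked with interaction terms. limma called 0 of 8 members for day 3 minus day 1 (0% of tested miRNAs), 0 of 8 for day 28 minus day 1 (0%) and 0 of 8 for day 28 minus day 3 (0%). Medians were 0.01, −0.04 and −0.06, against 0.07, 0.03 and 0.03 over all tested miRNAs. They moved with the scaling and with single arrays. Scaled on all probes they were −0.26, −0.39 and −0.15, against −0.20, −0.32 and −0.05 over all tested miRNAs, and with no scaling 0.32, 0.09 and −0.25, against 0.36, 0.15 and −0.15. In the submitters' value table they were −0.22, −0.19 and 0.03, or −0.18, −0.19 and −0.04 without the array that lacks scanner signal. In the main scaling without vehicle day 28 replicate 4, 8 of 8 members lay above 0 for day 28 minus day 1 (median 0.06) and day 28 minus day 3 (median 0.07). Without vehicle day 28 replicate 1, 0 of 8 did for either (medians −0.10 and −0.12). Under each of these, limma called 0 members. These comparisons share mice with the single-day ones and add no separate evidence.

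Time after instillation was compared within each arm. Among vehicle mice, limma called 0 of 8 members for day 3 minus day 1 (0% of tested miRNAs), 0 of 8 for day 28 minus day 1 (1.96% of tested miRNAs, 6 in all) and 0 of 8 for day 28 minus day 3 (0.654%). Among Printex 90 mice the counts were 0 of 8 for day 3 minus day 1 (0%), 0 of 8 for day 28 minus day 1 (1.31%) and 0 of 8 for day 28 minus day 3 (0.327%). The furthest values from day 1 to day 28 in vehicle mice were 0.13 ± 0.12 (SE) for let-7d and 0.12 ± 0.10 for let-7f, both with a limma adjusted p of 0.755. In Printex 90 mice let-7e had −0.14 ± 0.13 (limma adjusted p = 0.647), or −0.07 (limma adjusted p = 0.823) without Printex 90 day 1 replicate 5, and let-7f 0.07 ± 0.09 (limma adjusted p = 0.679).

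The arrays with signal came from 4 slides, which held 8, 7, 6 and 8 of them, and each slide held mice of 5 or 6 groups, so slide could be told apart from treatment and day. In a model with group and slide, the F test over slides called 7 of 8 members, against 17% of tested miRNAs (52 of 306). Because the members rise and fall together over arrays, as shown further on, their calls are not separate observations. The limma adjusted p was 0.0097 for let-7i, 0.0099 for let-7b and 0.0161 for let-7a, and ran up to 0.0491 for let-7e. For let-7g it was 0.0699. Beside slide 1, the 8 members lay 0.02 to 0.06 lower on slide 2, 0.09 to 0.14 higher on slide 3 and 0.16 to 0.29 higher on slide 4. The median of all tested miRNAs on slide 4 was within 0.01 of that on slide 1. Taking slide into account lowered the residual SD of let-7a from 0.157 to 0.114 and that of let-7i from 0.154 to 0.107.

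This slide result depended on how arrays were scaled and on single arrays. It was 0 of 8 when arrays were scaled on all probes, by the total gene signal of the scanner software or not at all. Scaling on the detected probes other than those of let-7, or by quantiles, also gave 0. The smallest adjusted p of a member in limma's F test was then 0.057 and 0.060. By contrast, 8 of 8 were called in the submitters' value table and without the 4 dimmest arrays. With no scaling the direction turned, since the mean of the 8 members was 11.84, 11.83, 11.83 and 11.69 on slides 1 to 4. Slides 3 and 4 stayed higher when scaled on all probes (11.65, 11.67, 11.89 and 11.99) and by quantiles (11.75, 11.72, 11.83 and 11.87). They were also higher in the submitters' value table (11.66, 11.66, 11.84 and 12). In the main scaling but without vehicle day 28 replicate 4, the count was 0. It was 3 without Printex 90 day 28 replicate 5. It was 4 without vehicle day 1 replicate 1, 2, 3 or 4, vehicle day 3 replicate 3, 5 or 6, vehicle day 28 replicate 3, Printex 90 day 1 replicate 1 or 2, Printex 90 day 3 replicate 2 or 5, or Printex 90 day 28 replicate 2. Leaving out each of the other 14 arrays gave 5 to 8.

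With slide as a fixed term, the exposure differences remained small. limma again called 0 of 8 members on day 1, 3, 28 and in the mean. Medians were 0.02, 0.06, −0.01 and 0.02. Within slides the day 1 difference had a median over members of 0.10 on slide 1, −0.00 on slide 2, 0.11 on slide 3 and −0.13 on slide 4, so its direction differed between slides. On day 3 the medians were −0.01, 0.26 and 0.04 on slides 1, 3 and 4, and on day 28 they were 0.20, −0.01 and −0.11 on slides 1, 2 and 4. Such values rest on 2 to 4 arrays each.

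**Figure D3:**
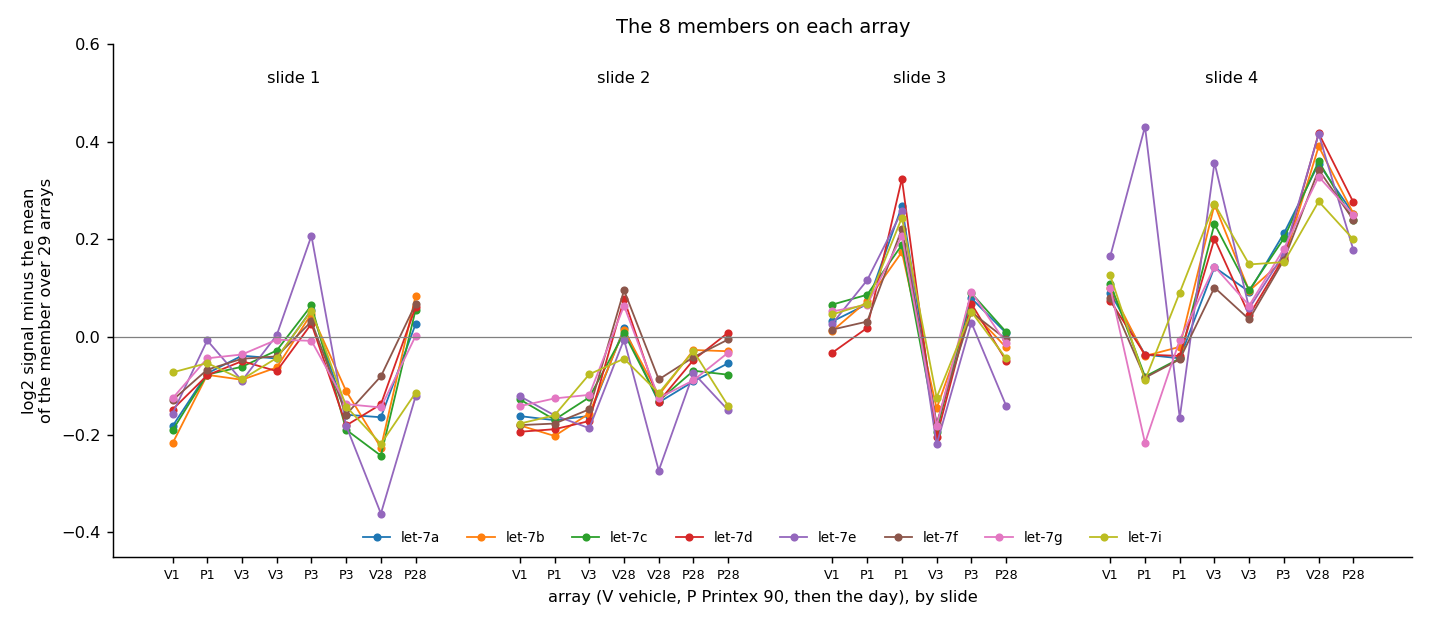
Log2 signal of each member minus that member's own mean over 29 arrays (vertical axis), for the arrays of each slide (horizontal axis: V is vehicle and P is Printex 90, followed by the day). The 8 lines run together from array to array, slide 4 lies higher than slides 1 and 2 in this scaling (lower with no scaling), and let-7e departs furthest from the others.

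Differences between arrays were largely shared by the family. The mean of the 8 members had an SD of 0.14 over arrays. Each member by itself had an SD of 0.13 (let-7f) to 0.21 (let-7e). Its distance from the mean of the 8 on the same array, in which a single scaling factor per array cancels, varied less. The SD of that distance was only 0.02 for let-7a and 0.03 for let-7b and let-7c. It was 0.04 for let-7d and let-7f, and 0.05 for let-7g and let-7i. For let-7e it was 0.11.

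The members were compared in pairs after group means were taken out. Among the 28 pairs, let-7a and let-7f went together most closely, with r = 0.99 over 29 arrays, and let-7e and let-7g least, with r = 0.70. The 21 pairs without let-7e had r between 0.92 and 0.99. The 7 pairs with let-7e had r between 0.70 and 0.87, and for each of the other 7 members let-7e was the least alike. With slide also taken out, the ranges were 0.85 to 0.98 and 0.51 to 0.76. These points share array, scaling and overall brightness, so the correlations describe the arrays and carry no test.

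Sequence likeness and signal likeness can be set side by side. Among pairs without let-7e, the 3 that differ at a single base (let-7a with let-7c, let-7a with let-7f, and let-7b with let-7c) had r of 0.98 to 0.99, and the SD of their log2 difference was 0.03 to 0.04. The 6 pairs that differ at 2 bases had r of 0.92 to 0.98 and an SD of 0.04 to 0.07, and the 6 that differ at 4 bases had r of 0.92 to 0.96 and an SD of 0.05 to 0.08. The 5 pairs that differ at 3 bases had r of 0.94 to 0.99 and an SD of 0.04 to 0.07. The 1 pair that differs at 6 bases had r = 0.93 and an SD of 0.08. Beyond a single base, r thus overlapped from each class to the next, while the SD tended to be larger with more differing bases. Within the class of 3 bases, let-7d and let-7f had r = 0.99. The hairpins of let-7a-1, let-7d and let-7f-1, which make these 3 mature strands, are neighbours on chromosome 13. However, let-7a and let-7e differ only by U9G and had r = 0.84. Whether a probe also caught near copies of its target was not tested.

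**Figure D4:**
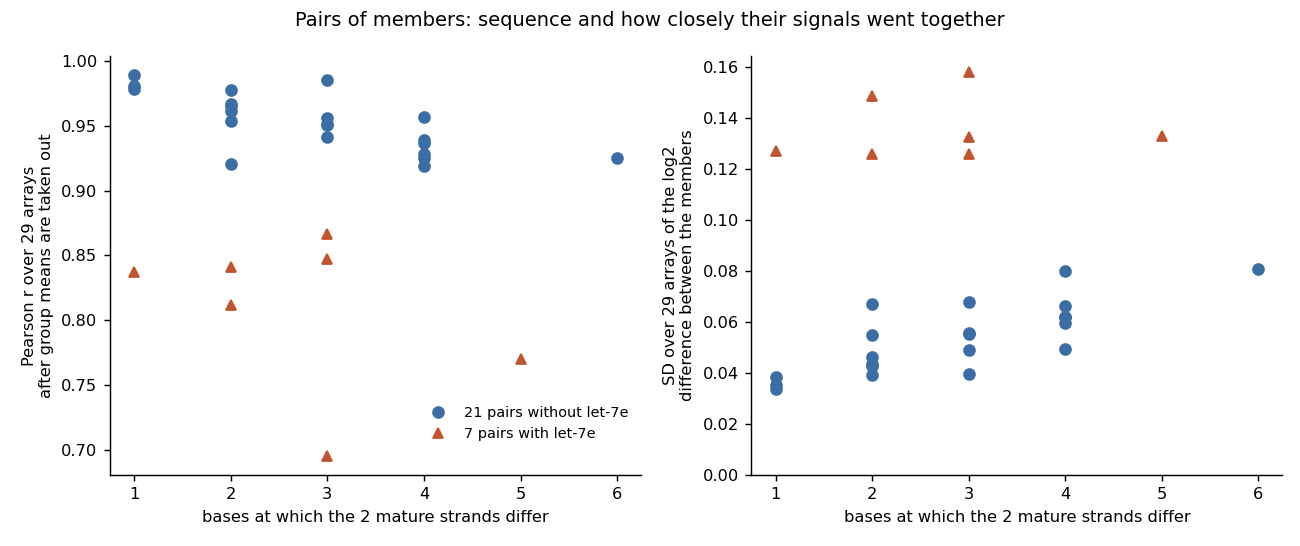
For each of 28 pairs of members, the Pearson correlation over 29 arrays after group means are taken out (left) and the SD of the log2 difference between the members (right), against the number of bases at which the mature strands differ. Pairs with let-7e (orange triangles, r 0.70 to 0.87) lie below the others (blue circles, r 0.92 to 0.99) whatever the number of differing bases.

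let-7e was the member furthest from the rest. Its hairpin neighbours that of miR-125a rather than another let-7, but let-7g and let-7i also have no let-7 hairpin beside them. The probes of let-7e were the dimmest of the family, with mean signals before scaling of 199.4 to 842.5. Every probe of the other members gave at least 1286. The part of this low signal in the spread of let-7e was not tested. Relative to the mean of the 8 on the same array, let-7e measured −2.91, −2.86, −2.90 and −2.84 in vehicle mice on day 1. In Printex 90 mice on day 1 it measured −2.85, −2.89, −2.85, −2.88, −2.45 and −3.03. The value of −2.45 belonged to replicate 5 and both let-7e probes showed it, at 9.08 and 9.57 against 8.43 to 8.85 and 9.02 to 9.45 in the other 5 mice. That array had 19.2% of spots well above background, near the low end of the 29, and the part of this in the result was not tested. Without it the SD of let-7e relative to the family fell from 0.11 to 0.08, and its correlation with the mean of the other 7 members was 0.90 in place of 0.78.

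Between members there were small shifts with time. A single scaling factor per array cancels in such shifts, but other processing, such as scaling by quantiles, need not. The distances from the family mean were computed in the main scaling only. These comparisons were singled out after their values were seen and carry no test. In the Printex 90 arm, let-7f relative to the family measured 1.42, 1.42, 1.40, 1.42, 1.37 and 1.42 at day 1. At day 3 it measured 1.40, 1.43, 1.42 and 1.42, and at day 28 1.49, 1.45, 1.49, 1.46 and 1.44. All 5 mice of day 28 were above all mice of the earlier days, by 0.06 over day 1 and 0.05 over day 3 in the mean. The separation was narrow, since the lowest mouse of day 28 was at 1.436 and the highest of day 3 at 1.431. In vehicle mice let-7f measured 1.46, 1.41, 1.42 and 1.41 on day 1 and 1.32 to 1.45 in 6 mice on day 3. On day 28 it measured 1.55, 1.50, 1.48 and 1.41 in vehicle mice, which overlapped both earlier days. The vehicle mean of day 28 was nevertheless higher too, by 0.06 over day 1 and 0.08 over day 3, so the rise was not particular to exposed mice. let-7d in vehicle mice measured −0.07, −0.10, −0.13 and −0.10 on day 1 and −0.01, −0.02, −0.06 and −0.01 on day 28, which did not overlap. The mean of let-7d rose by 0.07 there and by 0.03 in Printex 90 mice, whose groups overlapped.

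Such separations were few. The shares given beside them come from subtracting the same let-7 mean from every tested miRNA. That step removes variation that the members share, while the other 298 had a median r of 0.00 with the family mean. The shares are therefore not a like background for the members. Relative to the family mean, 1 of 8 members (let-7d) had groups that did not overlap between day 1 and day 28 in vehicle mice, against 4.58% of tested miRNAs. In Printex 90 mice it was 1 of 8 (let-7f) between day 1 and day 28, against 1.63%, and 1 of 8 (let-7f) between day 3 and day 28, against 3.59%. For exposed against vehicle mice it was 0 of 8 on day 1 (0.98% of tested miRNAs), 0 of 8 on day 3 (0.327%) and 0 of 8 on day 28 (0.327%).

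Within slides, day 28 was set against day 1 in the same arm 7 times, with 1 or 2 arrays per group each time. let-7f relative to the family was higher on day 28 in 7 of 7, by 0.01 to 0.09, and let-7b in 7 of 7, by 0.02 to 0.09. let-7e was higher in 0 of 7 (−0.22 to −0.00), but in 1 of 7 (−0.18 to 0.07) without Printex 90 day 1 replicate 5. let-7i was higher in 0 of 7 (−0.13 to −0.01) and let-7d in 6 of 7 (−0.04 to 0.09). The other members went both ways. Against day 3, let-7f was higher on day 28 in 6 of 6, let-7d in 5 of 6, let-7b in 4 of 6 (−0.01 to 0.06), let-7i in 1 of 6 and let-7e in 0 of 6. The comparisons with day 3 reused day 28 arrays from those with day 1, so the 2 sets of counts are not separate. Such counts were not made for the other tested miRNAs. Since the 8 distances from their mean sum to 0 on each array, a higher let-7f lowers others by construction.

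**Figure D5:**
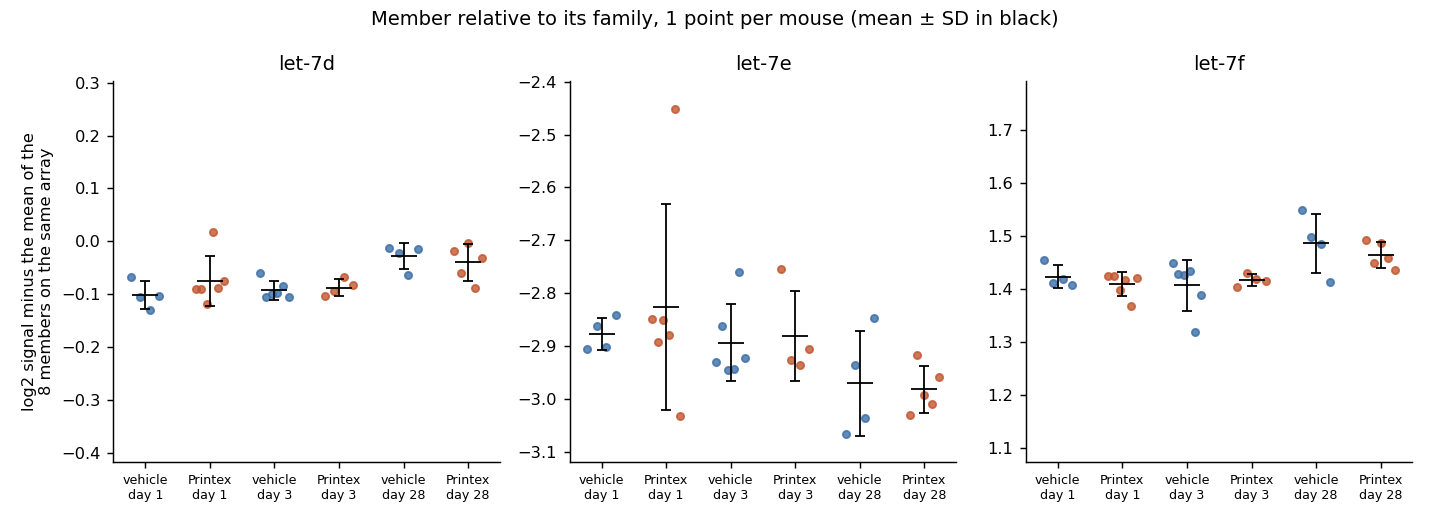
Log2 signal of let-7d, let-7e and let-7f minus the mean of the 8 members on the same array (vertical axis, each panel spanning the same width), by group (horizontal axis), with 1 point per mouse and the mean ± SD in black. Printex 90 day 28 lies above Printex 90 day 1 and day 3 for let-7f, whose mean is also higher on day 28 in vehicle mice, with overlap. On day 1, 1 Printex 90 mouse stands out for let-7e at −2.45.

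Among the other 298 tested miRNAs, those most like the family mean over the 29 arrays were miR-98 (r = 0.92), miR-152 (r = 0.89), miR-1839-5p (r = 0.88), miR-676 (r = 0.84, by Pearson) and miR-103 (r = 0.81). The lowest were miR-186 (r = −0.74) and miR-5112 (r = −0.71), and the median of all 298 was 0.00. These correlations were computed in the main scaling only. The mean log2 signal was low for miR-676 (4.952), miR-5112 (5.125) and miR-1839-5p (5.24), beside a floor of 4.045. miR-98, which carries the let-7 seed, also stood 0.26 higher on slide 3 and 0.35 higher on slide 4 than on slide 1 in this scaling. Its exposure differences were 0.08 ± 0.14 (SE) on day 1, 0.09 ± 0.14 on day 3 and 0.01 ± 0.14 on day 28.

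The miRNAs made from the same or neighbouring transcripts were counted as a list of 6, miR-98, miR-99a, miR-99b, miR-100, miR-125a-5p and miR-125b-5p. limma called 0 of 6 in each of the 13 comparisons. Exposure medians were 0.00 on day 1, 0.01 on day 3 and −0.03 on day 28. They were not equally like the family over arrays. The values of r were 0.77 for miR-100, 0.69 for miR-99a, 0.44 for miR-99b and 0.18 for miR-125b-5p. For miR-125a-5p, the neighbour of let-7e, r was −0.11. With group and slide taken out they lay closer together, at 0.75 for miR-100, 0.69 for miR-99a and 0.48 for miR-99b. The values were then 0.475 for miR-125b-5p and 0.42 for miR-125a-5p.

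The passenger strands, the opposite arms of the let-7 hairpins that are mostly discarded, were detected unevenly. Of 10 on the array, 3 (let-7a-1*, let-7b* and let-7d*) were detected on all 29 arrays and let-7f-1* on 27. These 4 entered the tests. let-7g* was detected on 14 arrays, let-7i* on 2 and the other 4 on none. Of the 4 tested, limma called 0 in each of the 13 comparisons. Their exposure differences ran from −0.35 ± 0.22 (SE) for let-7d* to 0.02 ± 0.15 for let-7f-1* on day 1 and from −0.08 ± 0.13 for let-7a-1* to 0.25 ± 0.16 for let-7f-1* on day 28.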

How the data were processed

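Spot quantification used Feature Extraction 10.7.3.1, per the file headers. The authors deposited background-subtracted, detrended signal intensity per spot on a linear scale, and a table of log2 values per miRNA whose scaling is not given in the sources used here. Signals of non-outlying spots were averaged per probe, divided by the array's 75th percentile over the 418 probes detected on all 29 arrays, floored at 16.5 and taken to log2. A probe was detected on an array when the fraction of its spots flagged well above background reached 0.5. Probes detected on at least 4 arrays of a group (621 probes, 306 mouse miRNAs) were averaged per miRNA. limma 3.58.1 in R 4.3.3 fitted 6 group means, with Benjamini-Hochberg adjustment over 306 miRNAs and a threshold of 0.05, after a run on simulated data with known changes. The number of arrays limits the precision. The files lack the mean spot signal, so the normexp alternative (offset 50) used the median spot and background signals. Text names all 8 members, the partner and passenger lists, and the 5 highest and 2 lowest correlations with the family mean. Members, lists and alternatives were chosen with earlier results of these data known. Labels state that each mouse gave its own RNA.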

Additional observations from a re-analysis of the deposited data

Results flagged for a closer look

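Each group of 4 to 6 mice was checked for a mouse that stood far from the others, for the 8 members and for their distance from the family mean, 96 checks in all. The check marks about 1 in 20 groups by chance, and 7 were marked. In log2 scaled signal, Printex 90 day 28 replicate 5 was the highest of 5 mice for let-7e (9.0715, the next 8.8195) and for let-7g (11.9580, the next 11.7103). That array lies on slide 4, where all members were higher in this scaling.

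The other 5 concern a member relative to the mean of the 8 on the same array. let-7b was highest in Printex 90 day 3 replicate 2 (0.1267, the next 0.0692). let-7d was highest in Printex 90 day 1 replicate 4 (0.0171, the next −0.0760). let-7e was highest in Printex 90 day 1 replicate 5 (−2.4517, the next −2.8485) and in Printex 90 day 3 replicate 1 (−2.7540, the next −2.9055). let-7g was lowest in Printex 90 day 1 replicate 5 (−0.2848, the next −0.1154), the array on which let-7e stood highest. No member had every exposed mouse above the vehicle mean on a day and every exposed mouse below it on another.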

How the results depend on the processing

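In all 13 comparisons of groups and in the F test over groups, 0 of 8 members were called under each of the up to 46 alternatives run, and the smallest adjusted p of any member was 0.287, for vehicle day 3 minus day 1. The number called for slide was 7. It was 0 with scaling on all probes, on detected probes other than let-7, by quantiles, by total gene signal or without scaling. With normexp it was 3, and with the brightest probe of each miRNA 4. In the submitters' value table and without the 4 dimmest arrays it was 8. When each array was left out it was 0 to 8. Uncalled signs moved freely: of 104 member values, 0 to 49 changed sign under the 17 other alternatives (49 with no scaling) and 0 to 29 when an array was left out. Over all tested miRNAs, the calls for day 28 minus day 1 were 6 in vehicle mice, with 0 to 7 under other settings and 3 to 8 with an array left out, and 4 in Printex 90 mice, with 0 to 6 and 1 to 4. For day 28 minus day 3 they were 2 (0 to 5, and 1 to 5) and 1 (0 to 2, and 1 to 2). They were 6 (0 to 7, and 3 to 6) for any group difference and 52 (24 to 72, and 31 to 85) for slide. Testing without a detection filter left out miRNAs at the floor on all arrays, leaving 427. No paired analysis was possible because replicate numbers follow the order of samples and name no shared animal. Every let-7 spot was well above background, and the pooled SD within groups was 0.14 to 0.22.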
